A study of Mus musculus with 11 samples.

Results

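The immunoglobulin heavy chain variable (Ighv) genes were followed in RNA sequencing of sorted splenic B cells. They were taken as all genes of the expression table whose symbol starts with Ighv and whose GENCODE M21 class is a heavy chain V gene, which gave 113 of 48795 genes, and 70 further Ighv loci annotated as pseudogenes were kept apart. The 113 genes belong to 16 families and lie on the minus strand of chromosome 12, at chr12:113578504-116000461 of GRCm38. The study compared light zone (LZ) B cells of the germinal center (GC) from mice with the wild-type allele (Myc_WT) and from mice whose endogenous Myc locus encodes valine-to-aspartate V394D (Myc_VD), a MYC that does not bind MIZ1, and it also profiled memory B cells (MBCs) of Myc_WT mice. All were female mice of 8 to 12 weeks, immunized intravenously with sheep red blood cells (SRBCs) and analysed on day 10. LZ B cells were sorted as B220+, Fas+ and CD86high cells that lacked CD138, IgD and CD38 and were low for CXCR4, from Myc_WT mice 1 to 4 and Myc_VD mice 5 to 8, 4 libraries per genotype. MBCs were sorted as B220+, CD38+ and CD273+ cells that lacked CD138 and IgD, from Myc_WT mice 1, 3 and 4, so 3 mice, matched by the identifier that their library titles share, gave both a LZ and a MBC library. In these titles the identifiers of all Myc_WT mice start with the same letters, and those of all Myc_VD mice with other letters. The number after the letters is the same for Myc_WT mice 1 to 3 and another for Myc_WT mouse 4. What these letters and numbers stand for is not given in the sources used here, and the letters cannot be told apart from genotype. The mutation itself cannot be read from gene-level values.

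Each B cell builds its heavy chain by joining 1 V, 1 D and 1 J segment, and the V segment encodes most of the antigen-binding surface, including the first and second complementarity-determining regions (CDR1 and CDR2). A B cell and its clonal descendants transcribe the same rearranged V gene at a high level, so V gene use in a sorted population reflects which clones it holds and how much heavy chain RNA they make. In GCs the V region is hypermutated and clones compete, and MBCs can leave the response before or after that stage. The values here are TPM, transcripts of each germline V gene per length on a scale with the same total in every library. They give V gene use only, not clones, D or J segments or mutations.

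The V regions of the genes that led the libraries are shown to make plain how different the leading genes are. Each runs 5′ to 3′ from the first codon of the mature V region to its second conserved cysteine, read from the GENCODE M21 transcript of the germline gene, with CDR1 and CDR2 codons in capitals. Ighv1-80 (chr12:115912344-115912776) and Ighv1-81 (chr12:115920279-115920712) led the LZ libraries, Ighv8-8 (chr12:115294062-115294504) led MBCs of mice 3 and 4, and Ighv1-59 (chr12:115335082-115335514) and Ighv1-39 (chr12:114914599-114915032) led MBCs of mouse 1. All are on the minus strand of GRCm38, have a leader exon and a V exon, and the stretch shown lies in the V exon.
Ighv1-80: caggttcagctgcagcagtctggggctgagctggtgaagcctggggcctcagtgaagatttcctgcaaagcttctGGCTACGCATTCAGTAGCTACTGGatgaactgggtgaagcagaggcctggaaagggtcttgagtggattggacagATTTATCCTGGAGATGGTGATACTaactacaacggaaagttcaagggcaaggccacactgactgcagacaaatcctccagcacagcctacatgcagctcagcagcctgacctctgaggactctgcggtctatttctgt
Ighv1-81: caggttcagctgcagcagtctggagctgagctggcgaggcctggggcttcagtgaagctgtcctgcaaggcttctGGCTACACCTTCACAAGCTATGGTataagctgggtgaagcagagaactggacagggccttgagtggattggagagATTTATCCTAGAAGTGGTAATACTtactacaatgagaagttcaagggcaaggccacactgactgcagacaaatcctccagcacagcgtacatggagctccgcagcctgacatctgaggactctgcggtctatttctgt
Ighv8-8: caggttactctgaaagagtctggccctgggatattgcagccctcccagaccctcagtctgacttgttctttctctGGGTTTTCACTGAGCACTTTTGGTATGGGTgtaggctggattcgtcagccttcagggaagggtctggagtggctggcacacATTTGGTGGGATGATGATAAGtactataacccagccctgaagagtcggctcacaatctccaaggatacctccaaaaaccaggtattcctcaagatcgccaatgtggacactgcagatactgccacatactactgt
Ighv1-59: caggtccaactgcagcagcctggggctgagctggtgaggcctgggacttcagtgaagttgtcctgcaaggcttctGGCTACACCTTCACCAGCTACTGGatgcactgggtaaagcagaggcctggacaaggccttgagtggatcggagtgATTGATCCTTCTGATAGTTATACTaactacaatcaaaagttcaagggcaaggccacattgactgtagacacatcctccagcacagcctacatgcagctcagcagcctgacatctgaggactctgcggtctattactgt
Ighv1-39: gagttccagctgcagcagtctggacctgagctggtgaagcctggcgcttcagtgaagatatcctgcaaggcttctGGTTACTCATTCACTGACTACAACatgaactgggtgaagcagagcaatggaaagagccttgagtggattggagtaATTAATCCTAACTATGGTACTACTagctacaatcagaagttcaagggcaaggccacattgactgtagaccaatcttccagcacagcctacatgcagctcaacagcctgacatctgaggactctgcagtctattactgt
Ighv1-80 and Ighv1-81 were 89.2% identical over their transcripts, and Ighv1-59 and Ighv1-39 were 83.5% identical to each other. The closest other gene was Ighv1-82 to Ighv1-80 (95.4%), Ighv8-11 to Ighv8-8 (96.1%), Ighv1-69 to Ighv1-59 (96.9%) and Ighv1-19 to Ighv1-39 (93.2%). Over all 113 genes the median identity to the nearest other gene was 95.4%, and 25 genes fell into 11 groups of at least 97% identity, in which reads may be divided uncertainly between copies.

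The MBC list summed to 562 to 883 TPM in MBCs and 39.9 to 44.5 TPM in Myc_WT LZ B cells, with 6 of 7 genes higher in every MBC library (Nt5e was not), and 7 of 8 LZ and GC genes were lower in every MBC library (Cd83 was not). Lists of other cell types also moved with the MBC libraries. The 3 naive follicular B cell genes summed to 788 to 834 TPM in MBCs against 363 to 367 TPM in Myc_WT LZ, with Ighd and Fcer2a higher in every MBC library. The 4 myeloid genes summed to 99.1 to 266 TPM against 53.4 to 97.5 TPM, with Csf1r and Itgam higher in every MBC library and Lyz2 at 0.15, 31.2 and 136 TPM in MBCs of mice 1, 3 and 4. Of 4 B-1 cell genes 2 were higher in every MBC library (Bhlhe41 and Spn). Of 5 genes put on a dark zone list 3 were lower (Mki67, Ccnb1 and Plk1) and 1 higher (Foxp1), and whether they mark dark zone cells alone was not tested. None of 5 T cell genes was apart between the groups. The part of such cells in the V gene values was not tested. Of 6 plasma cell genes none differed in this way and Tnfrsf17 was listed at 0 throughout, while Sdc1 was at 6.0 TPM in Myc_VD LZ mouse 7, at 5.4 TPM in MBCs of mouse 4 and at most 0.12 TPM elsewhere. Hemoglobin transcripts summed to 6199 TPM in MBCs of mouse 3 and to at most 291 TPM in all other libraries. Genes of any kind above 0 numbered 15460 to 19537 in Myc_WT LZ, 13169 to 16421 in Myc_VD LZ, and 12983, 11527 and 16040 in MBCs of mice 1, 3 and 4. TPM keep no read depth and the number of cells sorted is not given in the sources used here, so the counting error of a value is unknown and precision was taken from the spread between mice. In sorted bulk RNA, more cells using a V gene and more of its RNA per cell cannot be told apart.

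Ighv transcripts made up a larger part of all TPM in MBCs than in LZ B cells. The 113 genes summed to 2243, 2239, 2584 and 1982 TPM in LZ B cells of Myc_WT mice 1 to 4, to 2416, 2014, 1836 and 1352 TPM in those of Myc_VD mice 5 to 8, and to 4877, 3897 and 7192 TPM in MBCs of mice 1, 3 and 4. Every MBC library was above every LZ library, and the mean was 2.35 times that of Myc_WT LZ (5322 ± 1692 against 2262 ± 247 TPM, SD, n = 3 and 4). The heavy chain constant genes moved with them, at 7195 to 8702 TPM in MBCs against 2235 to 3366 TPM in Myc_WT LZ, as did the kappa V genes at 6867 to 8281 against 2491 to 3601 TPM. Ighm, the constant region of IgM, was at 3575, 3591 and 5053 TPM in MBCs and at 999 to 1311 TPM in Myc_WT LZ. Cd79a, a signaling chain of the B cell receptor, was at 1162, 1543 and 1044 TPM in MBCs against 586 to 876 TPM in Myc_WT LZ. The partner chain Cd79b overlapped, at 723, 994 and 690 TPM against 578 to 822 TPM. The genotypes overlapped in summed Ighv level: Myc_VD was at 0.842 times the Myc_WT mean, but at 1.03 and 1.05 times when ribosomal RNA genes were removed or libraries were rescaled by the median ratio. Ighv pseudogenes summed to 4.67 to 50.2 TPM per library.

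**Figure D1:**
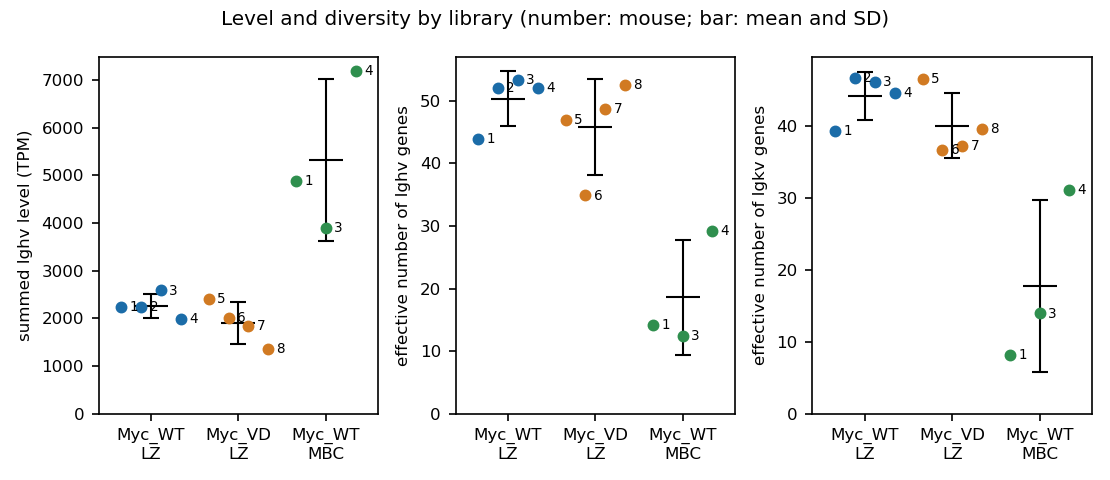
Summed TPM of the 113 Ighv genes (left), effective number of Ighv genes (middle) and effective number of 100 kappa V genes (right) in each library, with points numbered by mouse and bars for mean and SD per group (n = 4, 4 and 3). All 3 MBC libraries lie above all LZ libraries in the left panel and below them in the other panels, while the genotypes overlap.

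V gene use was less even in the MBC libraries. Diversity was measured as the effective number of genes, the number of equally used genes that would give the same Shannon entropy of the shares of Ighv TPM. It was 43.9, 52.1, 53.4 and 52.1 in Myc_WT LZ, 46.9, 34.9, 48.8 and 52.6 in Myc_VD LZ, and 14.2, 12.4 and 29.2 in MBCs of mice 1, 3 and 4. All MBC libraries were below all LZ libraries, with a mean of 18.6 ± 9.2 against 50.4 ± 4.38 in Myc_WT LZ (SD, n = 3 and 4). Myc_VD averaged 45.8 ± 7.65 (SD, n = 4) and overlapped Myc_WT, and without Myc_VD mouse 6 the genotypes differed by -0.923 in place of -4.56. The inverse Simpson index, which weights leading genes more, was 28.6 to 35.3 in Myc_WT LZ, 24.0 to 37.6 in Myc_VD LZ and 6.59, 5.39 and 13.4 in MBCs. Both measures are built from shares within a library and do not change when a whole library is rescaled.

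Detection placed the MBC library of mouse 4 elsewhere than diversity did. Ighv genes above 0 numbered 89, 100, 98 and 92 in Myc_WT LZ, 84, 70, 84 and 88 in Myc_VD LZ and 59, 46 and 90 in MBCs. The MBC libraries of mice 1 and 3 were below all LZ libraries, but that of mouse 4 was within the LZ range. All Myc_VD counts lay below all Myc_WT counts, with means of 81.5 and 94.75, beside means of 14809 and 17918 for genes of any kind. The lowest MBC counts belonged to the libraries with the fewest detected genes of any kind, whose part in diversity was not tested. The MBC library of mouse 4 had 90 Ighv genes and 16040 genes of any kind above 0 and an effective number of 29.2, and Myc_WT LZ mouse 1 had 89, 15460 and 43.9. Counting genes under 1 TPM as 0 left the difference between MBCs and Myc_WT LZ at -31.3 in place of -31.8. Such genes hold little of the summed Ighv TPM, so this setting could hardly move the measure. It does not test the part of read depth or cell number. Over all libraries, 30 of the 113 genes were above 0 in each and 4 were listed at 0 in all.

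**Figure D2:**
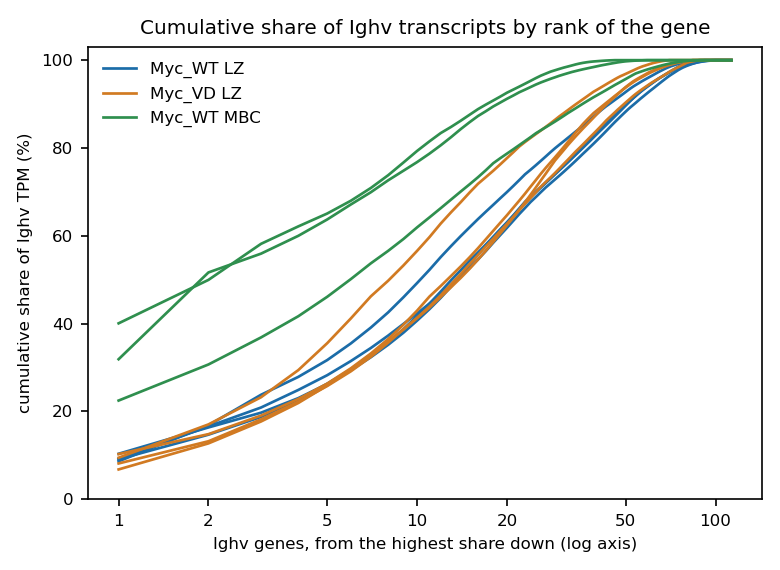
Cumulative share of summed Ighv TPM (percent) against the number of genes counted from the most used down (log axis), 1 line per library, coloured by group. The 3 MBC lines start at 22.4% to 40.04% and the 8 LZ lines at 6.75% to 10.3%.

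Few genes carried the MBC libraries. The leading gene took 31.9%, 40.04% and 22.4% of Ighv TPM in MBCs of mice 1, 3 and 4, against 8.61% to 10.3% in Myc_WT LZ and 6.75% to 10.3% in Myc_VD LZ. The 5 leading genes together took 63.7%, 65.1% and 46.1% in MBCs, 26.2% to 31.7% in Myc_WT LZ and 25.8% to 35.5% in Myc_VD LZ. To reach 50% of Ighv TPM took 2, 3 and 6 genes in the MBC libraries and 9 to 14 genes in the LZ libraries.

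LZ B cells of both genotypes shared their leading gene. Ighv1-80, a member of the large Ighv1 (J558) family near the far end of the locus, had the highest share in 7 of 8 LZ libraries. Its share was 8.61%, 10.3%, 9.11% and 9.07% in Myc_WT and 10.3%, 9.42%, 8.12% and 5.94% in Myc_VD, and it was 0.488%, 0.461% and 4.03% in MBCs. Ighv1-81, its neighbour on the chromosome, led Myc_VD mouse 8 at 6.75% and ranked next after Ighv1-80 in all Myc_WT libraries, at 8.21%, 6.001%, 7.44% and 5.61%. Ighv1-81 was at 0.599%, 1.89% and 1.97% in MBCs. Both genes thus had a lower share in every MBC library than in any LZ library. In TPM Ighv1-80 overlapped, at 179.87 to 236 in Myc_WT LZ and 23.8, 17.9 and 290.02 in MBCs, so that limma gave a log2 difference of -2.02 ± 0.815 (SE, adjusted p = 0.15), and its exact permutation p was 0.286 (n = 3 and 4). Ighv1-81 overlapped as well, with a log2 difference of -1.15 ± 0.483 (SE, limma adjusted p = 0.164). The same fit was run on shares of Ighv TPM, scaled to a total of 1000000 per library with a pseudocount of 1. It gave log2 differences of -3.26 ± 0.815 for Ighv1-80 and -2.36 ± 0.601 for Ighv1-81 (SE). On that scale 99 of 108 Ighv genes were below 0, with a median of -3.62. Both genes were named for leading LZ libraries, so a lower share in MBCs follows in part from that choice and no p is given. There were 13 genes at 1% or more in all 8 LZ libraries, but 1 gene at 1% or more in all 3 MBC libraries.

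**Figure D3:**
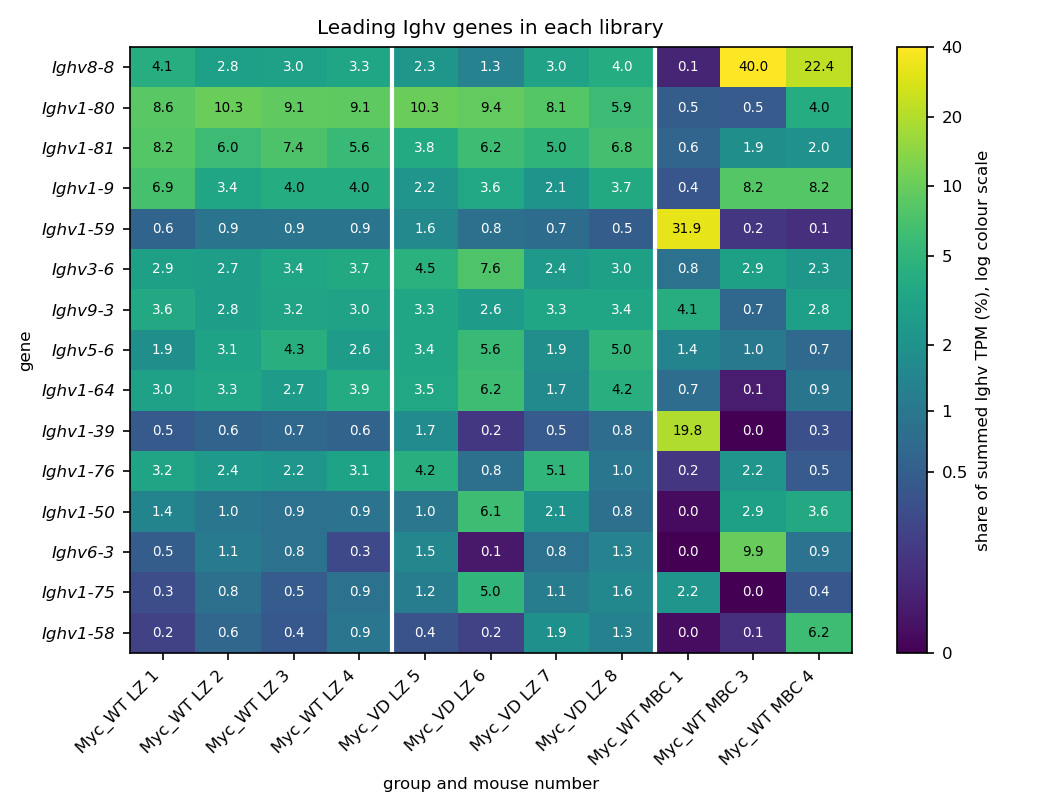
Share of summed Ighv TPM (percent, printed in each cell, log colour scale) of the 10 genes with the highest mean share and of all other genes that reached 5% in any library, by library. Ighv1-80 fills 5.9% to 10.3% of every LZ library, while Ighv1-59 and Ighv1-39 stand out in MBCs of mouse 1 alone and Ighv8-8 in MBCs of mice 3 and 4.

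The MBC libraries differed in what led them. In mouse 1, Ighv1-59 was at 1554 TPM (31.9%) and Ighv1-39 at 964 TPM (19.8%), and in the MBCs of mice 3 and 4 these genes were at 6.26 and 9.31 TPM and at 0 and 23.6 TPM. In LZ B cells Ighv1-59 ranged from 6.58 to 38.3 TPM and Ighv1-39 from 3.25 to 41.3 TPM over both genotypes. The 2 genes of mouse 1 thus stood far above all 10 other libraries. Their closest relatives were also highest in that library. Ighv1-69 was at 182 TPM there and at most 49.1 TPM elsewhere, and Ighv1-19 at 209 TPM and at most 77.6 TPM. Whether reads were divided between these genes was not tested.

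Ighv8-8, of the Ighv8 family, was at 1560 TPM in MBCs of mouse 3 (40.04%) and 1614 TPM in those of mouse 4 (22.4%), but at 4.15 TPM in those of mouse 1 (0.0851%). It was at 91.5, 63.3, 76.8 and 64.95 TPM in Myc_WT LZ and 55.6, 27.0, 55.8 and 53.9 TPM in Myc_VD LZ. Ighv1-9 followed the same mice, at 320 and 591 TPM in MBCs of mice 3 and 4 against 19.5 TPM in mouse 1 and 38.6 to 156 TPM in LZ B cells. With all MBC libraries in the fit neither gene was called by limma (Ighv8-8 log2 difference 1.66 ± 1.74, SE, adjusted p = 0.579; Ighv1-9 0.65 ± 0.979, adjusted p = 0.711). Without the MBC library of mouse 1, in which both were low, the log2 differences were 4.42 and 2.12. No p is given for these, since the library left out is the one that goes against the other MBC libraries. Ighv6-3 reached 9.90% in mouse 3 alone (386 TPM, against 0 and 63.6 TPM in mice 1 and 4), and Ighv1-58 reached 6.16% in mouse 4 alone (443 TPM, against 1.08 and 4.99 TPM in mice 1 and 3).

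Spread between mice was therefore wide for V genes. Over the 93 Ighv genes that averaged 1 TPM or more over the 11 libraries, the median SD of log2(TPM + 1) was 0.56 in Myc_WT LZ, 1.08 in Myc_VD LZ and 2.08 in MBCs, beside 0.33, 0.59 and 0.95 over all 13241 such genes. At an average of 10 TPM or more it was 0.47, 0.98 and 2.45 for 61 Ighv genes, beside 0.29, 0.49 and 0.79 for 7034 genes. The spread thus rose in the same order for V genes and for all genes, and was wider for V genes in each group. Within Myc_VD LZ, mouse 6 had 7 genes at 5% or more, against 1 to 3 in the other LZ libraries. These were Ighv1-80, Ighv3-6 (7.59%), Ighv1-81, Ighv1-64 (6.18%), Ighv1-50 (6.14%), Ighv5-6 (5.64%) and Ighv1-75 (5.03%).

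The largest family took a like share in all LZ libraries but not in MBCs. The Ighv1 family, with 53 of the 113 genes, took 59.3% to 65.4% in Myc_WT LZ and 58.8% to 66.6% in Myc_VD LZ, but 76.4%, 24.8% and 47.6% in MBCs of mice 1, 3 and 4. MBCs thus lay on either side of the LZ range. The Ighv8 family, with 9 genes, took 1.17%, 41.3% and 27.6% in MBCs, against 4.94% to 6.99% in Myc_WT LZ and 2.42% to 6.54% in Myc_VD LZ. Of these shares in mice 3 and 4, Ighv8-8 alone made up 40.04% and 22.4% of Ighv TPM. Ighv5, a family of 10 genes toward the constant region, took 1.76%, 3.93% and 4.94% in MBCs, below the 5.26% to 10.7% of Myc_WT LZ in every library, and Myc_VD LZ reached down to 4.82%. Ighv14 took 0.0443%, 2.75% and 1.71% in MBCs, below the 3.37% to 4.10% of Myc_WT LZ, while Myc_VD LZ, at 1.29% to 3.87%, overlapped both. Ighv3 varied within LZ too, at 3.43% to 5.31% in Myc_WT and 2.64% to 9.98% in Myc_VD, and was at 1.03%, 5.84% and 4.89% in MBCs. Ighv7 was at 0.846% to 1.97% in Myc_WT LZ and at 0.479% to 0.842% in Myc_VD LZ, which did not overlap by a narrow margin. Ighv7-3 took 0.668% to 1.69% in Myc_WT LZ and 0.115% to 0.588% in Myc_VD LZ, and Ighv7-4 took more than Ighv7-3 in Myc_VD mouse 5 (0.288% and 0.115%). The other families overlapped between genotypes or held under 1% of LZ Ighv TPM.

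**Figure D4:**
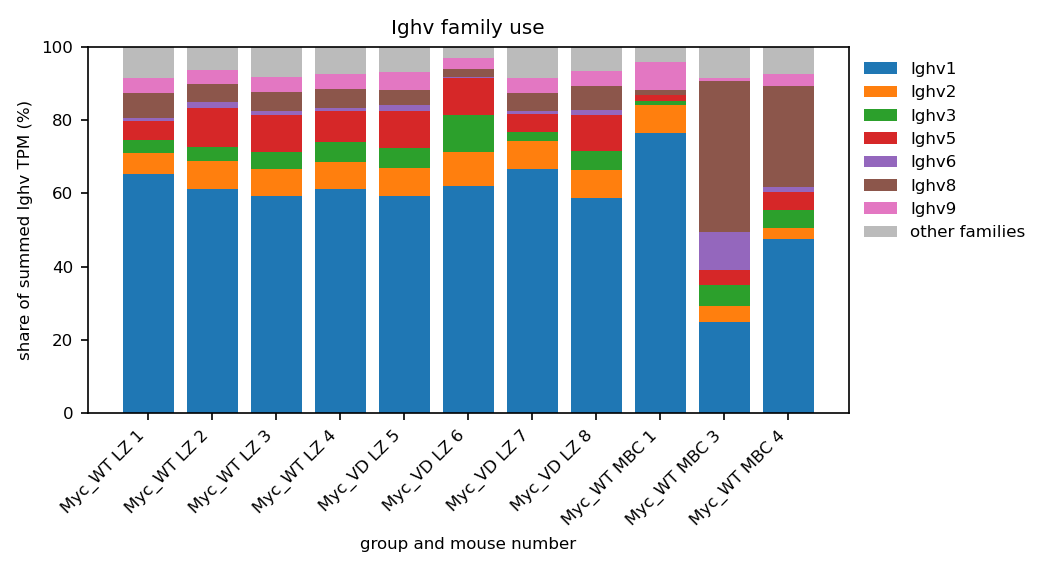
Share of summed Ighv TPM (percent) by gene family in each library, as stacked bars from 0 to 100; families that reached 5% in any library are coloured and the rest are grey. Ighv1 fills 58.8% to 66.6% of the 8 LZ bars and 24.8% to 76.4% of the 3 MBC bars, and Ighv3 runs from 2.64% to 9.98% within LZ.

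Position along the locus divided LZ and MBC libraries only in part. The 38 genes nearest the constant region took 20.3% to 27.7% of Ighv TPM in LZ libraries and 15.8%, 13.1% and 18.6% in MBCs, all below. The 38 farthest genes took 47.1% to 51.7% in LZ libraries and 48.4%, 52.8% and 58.4% in MBCs, which overlapped. Ighv8-8, Ighv1-59, Ighv1-80 and Ighv1-81 all lie among those 38.

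V gene use in common between 2 libraries was measured as the sum over genes of the smaller of the 2 shares, 100% for equal use. Myc_WT LZ libraries of different mice had 76.4% to 87.4% in common (6 pairs), Myc_VD LZ libraries 60.4% to 70.03% (6 pairs) and libraries of different genotype 63.6% to 80.1% (16 pairs). MBC libraries had less in common with each other, at 13.3% for mice 1 and 3, 19.9% for mice 1 and 4 and 53.7% for mice 3 and 4. Between MBC and Myc_WT LZ libraries it was 26.7% to 48.1% (12 pairs). Pairs share libraries, so these ranges are descriptions.

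In these 3 mice the MBC library had no more in common with the LZ library of its own mouse than it had, on average, with those of the other Myc_WT mice. The MBC library of mouse 1 had 26.7% in common with its own LZ library and on average 28.0% with those of the other 3 Myc_WT mice. For mouse 3 the values were 34.5% and 36.1%, and for mouse 4 they were 46.2% and 46.9%. The own-mouse value was thus lower in all 3 mice, by 1.21, 1.63 and 0.721 percentage points, a mean difference of -1.19 ± 0.456 (SD, n = 3). It stayed below 0, at -0.67, when genes of at least 97% identity were merged, and at -1.85 when the leading gene of each library was left out. This comparison is of V genes in bulk RNA, where clones of different origin that use the same V gene count as shared.

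**Figure D5:**
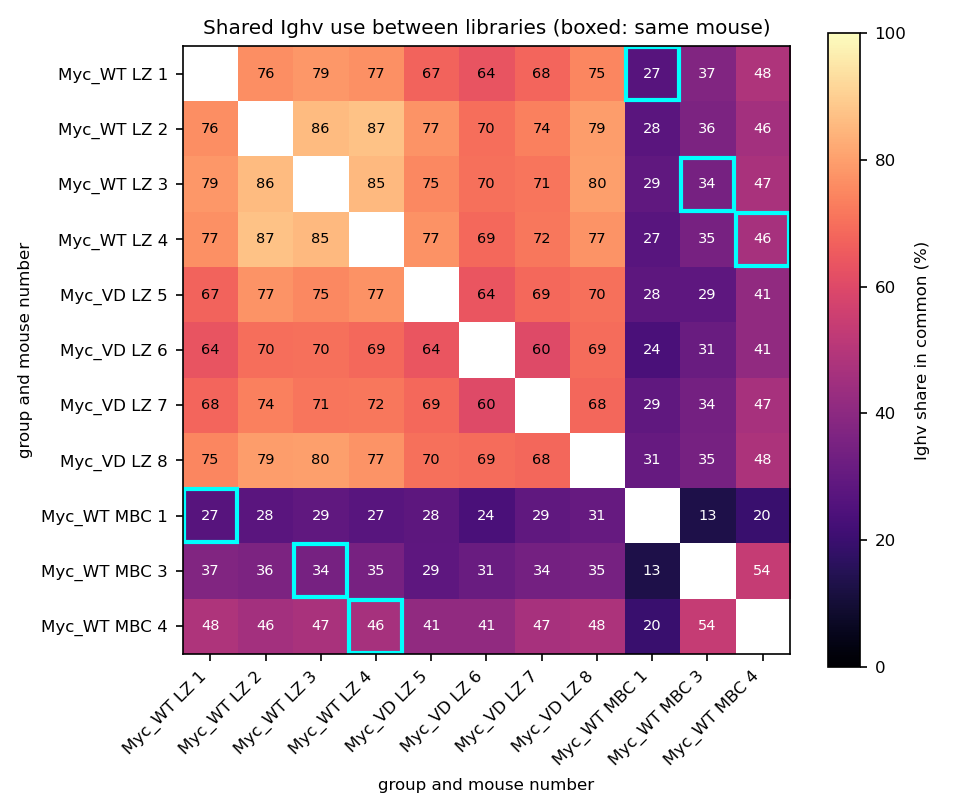
Ighv share in common (percent) for each pair of libraries, with the same-mouse pairs of LZ and MBC libraries boxed. LZ libraries have 60.4% to 87.4% in common, MBC and Myc_WT LZ libraries 26.7% to 48.1%, and the boxed values of 26.7%, 34.5% and 46.2% lie below the mean of each MBC library with the LZ of the other 3 Myc_WT mice (28.0%, 36.1% and 46.9%).

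The genes that led an MBC library were followed in the LZ of the same mouse. They were chosen for their share in that MBC library, so a lower share elsewhere follows in part from the choice, and the values are a description. Genes at 5% or more of the MBC library were Ighv1-59 and Ighv1-39 in mouse 1, with 51.6% of MBC and 1.04% of LZ Ighv TPM. In mouse 3 they were Ighv8-8, Ighv6-3 and Ighv1-9, with 58.2% and 7.83%, and in mouse 4 Ighv8-8, Ighv1-9 and Ighv1-58, with 36.8% and 8.26%. In LZ B cells of mice 3 and 4, Ighv1-9 took 4.004% and 4.04% and Ighv8-8 took 2.97% and 3.28%, so both were well used there. No gene reached 5% in both libraries of a mouse. Genes listed at 0 in the LZ of the same mouse made up 0.0888%, 0.0778% and 3.76% of MBC Ighv TPM in mice 1, 3 and 4, the last mostly Ighv11-2. In the other direction, genes listed at 0 in MBCs held 13.9%, 28.2% and 0.948% of LZ Ighv TPM, which was the larger share in mice 1 and 3 and the smaller in mouse 4. The 10 leading genes of each LZ library took 49.2%, 42.3% and 41.7% there and 11.4%, 55.6% and 44.4% in the MBCs of the same mouse. In mice 3 and 4 most of the MBC values was Ighv8-8 and Ighv1-9, which are among these 10, and the other 8 genes took 35.3% and 34.4% of LZ but 7.37% and 13.7% of MBC Ighv TPM.

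To ask whether loss of MIZ1 binding by MYC went with other V gene levels, LZ B cells of the genotypes were compared gene by gene with limma on log2(TPM + 1), adjusted over all 12869 genes that averaged 1 TPM or more. Of the 113 genes 94 were tested, and none was called at an adjusted p under 0.05, where 0.0466% of all genes tested were. At an unadjusted p under 0.05, 2 were higher (2.13%, beside 1.24% of all genes) and 21 lower (22.3%, beside 15.7%) in Myc_VD. All Myc_VD libraries were above all Myc_WT libraries for 1 gene (1.06%, beside 0.816%) and below them for 11 (11.7%, beside 9.16%). The median log2 difference was -0.47 for Ighv genes and -0.31 for all genes. After median ratio rescaling these were -0.18 and -0.01, so the Ighv median minus that of all genes was -0.17 on both scales. Without Myc_VD mouse 5, 4 Ighv genes were called, all lower (4.30%, beside 1.98% of all genes called either way).

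Of the Ighv genes with an unadjusted p under 0.05 and no overlap between genotypes, the 5 with the largest decrease in Myc_VD stayed below 40 TPM in every LZ library. Ighv7-3 was at 37.8, 14.96, 29.4 and 20.4 TPM in Myc_WT and 2.78, 7.15, 10.8 and 6.95 TPM in Myc_VD, a log2 difference of -1.78 ± 0.399 (SE, limma adjusted p = 0.108). Ighv1-4 was at 7.28, 10.8, 13.1 and 22.02 TPM against 1.97, 0, 2.08 and 2.77 TPM (-2.46 ± 0.485, limma adjusted p = 0.0805). The groups did not overlap for either gene, nor for Ighv1-11 (2.45 to 10.1 against 0 to 1.04 TPM), Ighv1-77 (6.26 to 8.57 against 0 to 5.09 TPM) and Ighv6-6 (5.82 to 11.04 against 0 to 3.79 TPM). Ighv1-75 was the gene higher in Myc_VD, at 7.0, 18.2, 12.1 and 16.9 TPM in Myc_WT and 28.5, 101.3, 21.1 and 21.04 TPM in Myc_VD, with 101.3 TPM in mouse 6 (log2 difference 1.34 ± 0.482, limma adjusted p = 0.206). Ighv1-62-2 had a decrease of like size but overlapped, at 21.8 to 59.5 TPM in Myc_WT and 0 to 49.9 TPM in Myc_VD (log2 difference -2.24 ± 0.95, SE, limma adjusted p = 0.263). Summed with Ighv1-71, to which it is 99.7% identical, it was at 52.04, 74.5, 71.7 and 59.5 TPM in Myc_WT and at 75.75, 24.2, 20.9 and 37.2 TPM in Myc_VD, which also overlapped. No exact p is given for genes named because their groups did not overlap, since that choice fixes it. Among the leading genes Ighv8-8 (63.3 to 91.5 against 27.0 to 55.8 TPM) and Ighv1-9 (75.1 to 156 against 38.6 to 71.6 TPM) also did not overlap, at log2 differences of -0.66 (limma adjusted p = 0.251) and -0.93 (limma adjusted p = 0.149). Their shares of Ighv TPM overlapped, at 2.83% to 4.08% against 1.34% to 3.98% for Ighv8-8 and 3.36% to 6.94% against 2.10% to 3.68% for Ighv1-9. Ighv1-80 and Ighv1-81 overlapped between genotypes, at log2 differences of -0.43 (limma adjusted p = 0.491) and -0.61 (limma adjusted p = 0.221). Ighv3-6, Ighv5-6, Ighv1-64 and Ighv9-3 also overlapped, with log2 differences from -0.27 to 0.08.

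MBCs were compared with LZ B cells of Myc_WT mice in the same way, over 13245 genes, of which 92 were Ighv genes. Both comparisons use the same Myc_WT LZ libraries. By limma 2 Ighv genes were called higher (2.17%, beside 4.17% of all genes) and 4 lower (4.35%, beside 5.04%), below the shares over all genes. On shares of Ighv TPM none was called higher and 14 lower, which was 12.96% of the Ighv genes tested beside 8.85% of all genes. In that fit only the Ighv genes were rescaled and all others stayed in TPM, so these percentages are on unlike scales. Shares sum to a whole, so high shares of the leading MBC genes lower those of the rest. There 99 of 108 Ighv genes were below 0, with a median of -3.62. In TPM, MBC libraries were all above the LZ libraries for 2 Ighv genes (2.17%, beside 11.8%) and all below for 12 (13.0%, beside 14.4%). The median log2 difference in TPM was -0.63 for Ighv genes and -0.14 for all genes, and 61 of 92 were below 0, although summed Ighv TPM were higher in every MBC library. With the mouse as a block, which drops Myc_WT mouse 2, 1 Ighv gene was called, Ighv10-3. This was 1.08% of the Ighv genes tested, beside 1.89% of all genes. The count moved with the libraries, as did that over all genes. Without the MBC library of mouse 1, 3 or 4 it was 10 (8 higher and 2 lower), 11 (6 and 5) and 22 (1 and 21) Ighv genes (10.75%, 11.8% and 24.7%, beside 8.79%, 12.7% and 21.03% of all genes). Without any single Myc_WT LZ library it was 1 or 2 (1.08% to 2.17%, beside 2.601% to 3.92%), and with all libraries it was 6 (6.52%, beside 9.20%).

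Ighv10-3 and Ighv7-3 were higher in every MBC library than in any Myc_WT LZ library, and both were called. Ighv10-3 was at 94.0, 155 and 70.7 TPM against 4.26, 16.4, 15.2 and 11.3 TPM in Myc_WT LZ (log2 difference 3.13 ± 0.489, SE, limma adjusted p = 0.00779). In Myc_VD LZ it was at 14.4, 0, 32.3 and 8.73 TPM. It was called under 15 of 16 alternatives, the exception being limma on the share of Ighv TPM (limma adjusted p = 0.0774), with log2 differences of 2.08 to 3.39. Its share was 1.93%, 3.97% and 0.984% in MBCs and 0.19% to 0.731% in Myc_WT LZ. Ighv7-3 was at 77.5, 53.5 and 74.6 TPM in MBCs against 14.96 to 37.8 TPM (1.45 ± 0.37, limma adjusted p = 0.0441), and held its call in 4 of 16 alternatives. Its share of Ighv TPM overlapped, at 1.04% to 1.59% in MBCs and 0.668% to 1.69% in Myc_WT LZ.

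The genes called lower in MBCs were Ighv1-15, Ighv1-62-2, Ighv1-62-3 and Ighv13-2. They held their calls in 6, 7, 8 and 7 alternatives, of 15 for Ighv1-62-3 and 16 for the others, and all 4 lost them with the mouse as a block (limma adjusted p of 0.0911 to 0.265) and without any single Myc_WT LZ library. Ighv1-15 was at 0, 0 and 14.4 TPM in MBCs against 85.95, 22.3, 39.8 and 19.8 TPM (-3.86 ± 0.993, SE, limma adjusted p = 0.0453), and its near-identical copy Ighv1-23 added at most 0.64 TPM to any library. Ighv13-2 was at 2.06, 1.42 and 3.12 TPM against 8.62, 8.27, 9.91 and 17.9 TPM (-1.90 ± 0.485, limma adjusted p = 0.0441). Ighv1-62-2 was at 9.21, 0 and 6.27 TPM against 21.8 to 59.5 TPM, but summed with Ighv1-71, to which it is 99.7% identical, the level was 62.7, 0 and 52.3 TPM against 52.04 to 74.5 TPM and overlapped. Likewise Ighv1-62-3 was at 0, 0 and 0.59 TPM against 2.96 to 7.24 TPM, and summed with Ighv1-72, 99.2% identical, at 28.7, 9.28 and 120 TPM against 54.4 to 92.3 TPM. For both genes the sum with the near-identical copy thus overlapped between the groups; these sums were added after the data were seen. Ighv5-9 was also apart, at 1.52, 0 and 3.18 TPM against 5.42 to 35.3 TPM (limma adjusted p = 0.0516). Ighv1-64, one of the leading genes, was at 36.3, 2.22 and 66.3 TPM against 67.5 to 76.9 TPM (limma adjusted p = 0.212).

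V genes known from defined antibody responses showed no common pattern. Ighv1-72, the VH186.2 gene of the response to the hapten NP, was at 51.04 to 85.1 TPM in Myc_WT LZ, at 34.6 to 50.7 TPM in Myc_VD LZ and at 28.7, 9.28 and 119 TPM in MBCs. The genotypes did not overlap for it (log2 difference -0.51 ± 0.233, limma adjusted p = 0.291), whereas its share of Ighv TPM did, at 1.97% to 3.795% and 2.10% to 2.56%. Ighv11-2, used by B-1 cells against phosphatidylcholine, was at most 1.06 TPM in Myc_WT LZ and 4.89 TPM in Myc_VD LZ, and was at 0, 0 and 194 TPM in MBCs of mice 1, 3 and 4. In that library of mouse 4 the summed level of 4 B-1 markers was 58.7 TPM against 3.94 to 7.08 TPM in Myc_WT LZ, with Bhlhe41 at 31.8 TPM and Cd5 at 0.2 TPM; the MBCs of mice 1 and 3 had Bhlhe41 at 24.1 and 7.2 TPM with Ighv11-2 at 0, and the part of B-1 cells was not tested. Ighv12-3, the other phosphatidylcholine gene, was at 58.2 TPM in Myc_VD LZ mouse 5 and at most 14.96 TPM elsewhere. Ighv5-2 (VH81X), the member nearest the constant region, was at 6.65 to 14.96 TPM in Myc_WT LZ, 1.03 to 12.9 TPM in Myc_VD LZ and 0, 26.6 and 1.98 TPM in MBCs. Ighv7-1, the T15 gene of responses to phosphorylcholine, was at most 3.65 TPM in any library.

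The kappa V genes, an independent locus of the same cells, gave a similar picture. The effective number over 100 Igkv genes was 39.4 to 46.7 in Myc_WT LZ, 36.8 to 46.7 in Myc_VD LZ and 8.22, 14.0 and 31.2 in MBCs of mice 1, 3 and 4. The leading gene of the MBC libraries took 57.8% (Igkv5-39, mouse 1), 35.1% (Igkv9-120, mouse 3) and 13.2% (Igkv17-127, mouse 4) of Igkv TPM, against 7.16% to 12.3% in Myc_WT LZ. All MBC libraries were below all LZ libraries in effective number, for both loci, and MBCs of mouse 4 were the most diverse MBC library for both.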

How the data were processed

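RNA was sequenced from 11 libraries of sorted splenic B cells. The authors aligned reads with STAR 2.5.2a and quantified genes with RSEM 1.3.0 on GRCm38, and deposited TPM, estimated transcripts divided by length and scaled to a total of 1000000 per library. RSEM divides reads between similar genes, and reads across V(D)J junctions or hypermutated stretches may align less well. TPM keep no depth, so precision was taken from the spread between mice. The authors' tests of counts with DESeq2, whose version differs between the submitters' processing notes and the published methods, were not used here.

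Symbols, classes and V regions came from GENCODE M21, which held a symbol for 48435 of 48795 genes. Identity was measured with blastn 2.17.0 over at least 250 bases. Each comparison was a limma fit (version 3.58.1, R 4.3.3, moderated with a mean trend) of log2(TPM + 1) for the libraries of its groups, keeping genes averaging at least 1 TPM in it, two-sided, with Benjamini-Hochberg adjustment over all genes and a threshold of 0.05. Fold changes on this scale understate those of low genes. Exact permutation tests of the difference in mean TPM were two-sided, printed for genes not named for a lack of overlap, over 70 or 35 groupings (Python 3.11.15 with scipy 1.17.1, pandas 2.3.3 and numpy 2.4.6). Levels summed over members, diversity, families and shares in common got no test. The fits were tested on simulated data in which each gene had the same spread in both groups. In the real data the median SD of Ighv genes was 0.56 in Myc_WT LZ and 2.08 in MBCs. The simulation therefore does not cover unequal spread, and each fit takes 1 spread per gene for its groups.

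The members, gene lists and comparisons were chosen with earlier results of these data known. Named were the 10 genes of highest mean share, the leading gene of each library, up to 5 genes higher and 5 lower per comparison past the adjusted threshold or, to fill up, at an unadjusted p under 0.05 with groups apart, 5 genes of known use and any gene at 5% in both libraries of a mouse (none). Ighv6-3, Ighv1-58, Ighv1-50, Ighv1-76 and the kappa genes were named after their values were seen. LZ and MBC libraries with equal numbers carry 1 mouse identifier in their titles. For these pairs, deviations from the mean of each group had a Pearson r of 0.00711, 0.0114 and -0.0463 over 13241 genes and of -0.0294, -0.0832 and -0.0543 over 93 Ighv genes. Alternatives were a pseudocount of 0.1, no filter, 5 TPM, median ratio rescaling, removal of 356 ribosomal RNA genes, shares within Ighv, no trend, the mouse as a block, a fit of all groups, other diversity and sharing measures, merged copies of at least 97% identity and each library left out. Rescaled sums were added after the data were seen.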

Additional observations from a re-analysis of the deposited data

Results flagged for a closer look

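In groups of 4 libraries, 13 of 82 sets of values had a highest or lowest library that lay far from the other 3 (by the gap to the nearest library over the whole range, Dixon's critical value at 95%), where chance gives about 1 in 20. The sets are not independent, since shares of a library sum to its whole.

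Myc_WT LZ mouse 1 stood low for the effective number of genes (43.9, others 52.1 to 53.4), for the Ighv1-59 share (0.586%, others 0.9% to 0.91%) and for the Ighv2 family (5.74%, others 7.25% to 7.52%), and high for the Ighv8 family (6.99%, others 4.94% to 5.24%). Myc_WT LZ mouse 4 stood high for Ighv13-2 (0.904%, others 0.369% to 0.384%).

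Myc_VD LZ mouse 6, the library with the fewest genes of any kind above 0 in its group, stood high for the share of the 5 leading genes (35.5%, others 25.8% to 26.3%), for Ighv1-75 (5.03%, others 1.15% to 1.56%) and for the Ighv2 family (9.27%, others 7.43% to 7.59%), and low for Ighv9-3 (2.58%, others 3.295% to 3.41%). Myc_VD LZ mouse 7 stood high for the Ighv10 family (2.73%, others 0.565% to 0.841%) and low for the Ighv5 family (4.82%, others 9.79% to 10.25%). It was also flagged for Ighv1-11 (0.0566%, others 0%), where equal values in the others make the gap the whole range. Myc_VD LZ mouse 5 stood high for Ighv12-3 (2.41%, others 0% to 0.224%).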

How the results depend on the processing

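The count of Ighv genes called between MBCs and Myc_WT LZ was 6 and depended on the setting. It was 2 with a pseudocount of 0.1, 1 with no filter, 14, all lower, on shares within Ighv and 1 with the mouse as a replicate block, paired by the mouse identifier in the titles, and it ranged from 1 (without Myc_WT LZ mouse 2, 3 or 4) to 22 (without MBC mouse 4) with each library left out. The count over all genes moved as well, from 1219 to 987, 608, 1174 and 248 under those settings and to 342 to 2754 with each library left out. On shares within Ighv only the Ighv genes were rescaled, and their median log2 difference was -3.62. The Ighv count stayed within 1.5 times of 6 under a mean of 5 TPM, median ratio rescaling, removal of ribosomal RNA genes, no trend and all groups in 1 fit. Between genotypes the count was 0 and ranged from 0 to 4 (without Myc_VD mouse 5) with each library left out, with 0 under all 8 other alternatives. No log2 difference of the genes named for either comparison changed sign. The difference in effective number between MBCs and Myc_WT LZ was -31.8, and -24.45 as an inverse Simpson index. Own-mouse minus other-mouse share in common was -1.19, -1.85 without leading genes, -0.67 with copies merged, and -1.91 to -0.611 with each mouse left out. Summed Ighv TPM of Myc_VD over Myc_WT was 0.842, and 1.05 after median ratio rescaling. The cause of these changes was not tested. TPM hold no depth, so low genes listed at 0 cannot be told from genes missed, and 3 MBC libraries cannot reach an exact p under 0.0571.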
